A study of Homo sapiens and Mus musculus with 24 samples.

Results

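The mitochondrial genome of mammals is a small circular DNA that encodes only the RNAs its own translation system needs and a few subunits of the respiratory chain. In the gene annotation of the deposited tables it carried 37 genes of 58381 in human and 37 of 53715 in mouse, namely 13 mRNAs, 2 rRNAs and 22 tRNAs in each species. All genes assigned to chromosome M were taken as members, with no use of their values. Their counts were read in 24 samples of 4 cell types. HepG2 is a human hepatocellular carcinoma line and HEK293 a human embryonic kidney line, which the methods of the study name HEK293T. Neuro2a is a mouse neuroblastoma line. HippCulture denotes primary hippocampal neurons dissociated from wild-type mouse E16.5 embryos (C57/BL6NCr strain by the methods) and grown with AraC against dividing glia. Each cell type gave 3 nonirradiated samples (UVm), sequenced as conventional RNA-seq, and 3 UV-irradiated samples (UVp). The labels name no genetic change and no drug that sets the groups apart, and all samples went through the same TRIzol extraction, in which RNA is taken from the aqueous phase. UV light links RNA covalently to proteins that touch it, and linked RNA leaves the aqueous phase, which is the basis of UPA-seq, the sequencing of what the aqueous phase still holds after irradiation. From RT-qPCR and northern blots of MALAT1, the paper proposes that these bonds also hinder reverse transcription. Counts can therefore reflect that step as well as recovery from the aqueous phase. The labels number the replicates 1 to 3. The study describes its replicates of these cell types as biological, and the labels do not add whether each was a culture of its own. P-values measure the spread between these samples.

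Both strands of the mitochondrial DNA are transcribed as long precursors without introns. The tRNA genes lie between most mRNA and rRNA genes, and excision of each tRNA, at its front by RNase P and at its end by ELAC2, releases the RNAs on either side. The rRNA genes and the tRNAs next to them lie closest to the promoter of the strand that carries most genes. The mRNAs encode subunits of complex I (MT-ND1 to MT-ND6), complex III (MT-CYB), complex IV (MT-CO1 to MT-CO3) and the ATP synthase (MT-ATP6 and MT-ATP8). Most of these mRNAs are polyadenylated inside the organelle and held by the LRPPRC and SLIRP protein pair, while the rRNAs sit in the mitochondrial ribosome.

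On chromosome M of hg38 and of mm10, 28 genes lay on the plus strand and 9 on the minus strand. The minus-strand genes were MT-ND6, a complex I mRNA, and 8 tRNA genes. The human mRNA genes spanned 207 to 1812 bases and the tRNA genes 59 to 75 bases. Neighbouring genes mostly abutted, and the counting commands in the file headers let a read count for every gene it overlapped and set no strand option. A tRNA count can therefore include reads of unprocessed or longer RNAs that cross it, and sense and antisense RNA were not separated. The cluster of minus-strand tRNAs between MT-ND2 and MT-CO1 is shown because its genes held the 2 highest tRNA counts in each nonirradiated cell type. Its plus strand is printed 5′ to 3′, from hg38 chrM:5657-5891 and mm10 chrM:5089-5326, with the MT-TN, MT-TC and MT-TY genes in capitals. The 31 human or 32 mouse bases in lower case between MT-TN and MT-TC hold the origin from which the other strand is replicated. The RNAs are the reverse complement of what is printed.
human MT-TN, MT-TC and MT-TY: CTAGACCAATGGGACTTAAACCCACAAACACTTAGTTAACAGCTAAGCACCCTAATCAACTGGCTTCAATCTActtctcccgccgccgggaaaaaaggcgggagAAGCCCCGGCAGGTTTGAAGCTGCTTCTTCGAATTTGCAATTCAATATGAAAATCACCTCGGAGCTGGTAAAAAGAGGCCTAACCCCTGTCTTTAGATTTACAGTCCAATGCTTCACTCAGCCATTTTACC
mouse mt-Tn, mt-Tc and mt-Ty: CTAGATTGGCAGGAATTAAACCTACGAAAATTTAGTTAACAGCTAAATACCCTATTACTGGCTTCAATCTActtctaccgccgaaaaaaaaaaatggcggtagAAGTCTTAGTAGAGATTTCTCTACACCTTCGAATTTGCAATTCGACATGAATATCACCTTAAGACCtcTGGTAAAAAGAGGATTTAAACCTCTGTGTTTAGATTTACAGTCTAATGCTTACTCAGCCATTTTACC

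A second tRNA cluster, MT-TH, MT-TS2 and MT-TL2, follows MT-ND4 and precedes MT-ND5 on the plus strand. It is shown because its mouse copy behaved differently in the mouse line and the primary culture. The plus strand is printed from hg38 chrM:12138-12336 and mm10 chrM:11546-11741, with the middle gene, MT-TS2, in capitals.
human MT-TH, MT-TS2 and MT-TL2: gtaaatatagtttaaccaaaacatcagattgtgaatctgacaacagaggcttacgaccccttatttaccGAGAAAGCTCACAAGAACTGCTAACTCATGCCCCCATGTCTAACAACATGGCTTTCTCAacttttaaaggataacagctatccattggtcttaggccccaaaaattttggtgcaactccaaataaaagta
mouse mt-Th, mt-Ts2 and mt-Tl2: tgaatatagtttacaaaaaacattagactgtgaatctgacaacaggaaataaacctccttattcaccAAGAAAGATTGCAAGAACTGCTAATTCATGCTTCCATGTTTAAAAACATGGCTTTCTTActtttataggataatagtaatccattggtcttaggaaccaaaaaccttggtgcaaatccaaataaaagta

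A pair of bicistronic mRNAs carry overlapping reading frames, so that reads over the shared bases were counted for both genes. MT-ATP8 and MT-ATP6 share 46 bases and MT-ND4L and MT-ND4 share 7 bases in human, in capitals below, from hg38 chrM:8507-8592 and chrM:10740-10786. The members of each pair are therefore not fully separate measurements.
human MT-ATP8 and MT-ATP6: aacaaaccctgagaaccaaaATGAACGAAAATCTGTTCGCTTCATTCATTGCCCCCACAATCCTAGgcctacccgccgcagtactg
human MT-ND4L and MT-ND4: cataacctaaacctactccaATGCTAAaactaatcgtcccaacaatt

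Libraries held 36573473 to 53511592 gene counts in HepG2 and 6910907 to 11188033 in the other 3 cell types. The HepG2 libraries were sequenced on another sequencer model than the rest, which cannot be told apart from the cell line in comparisons with HEK293. The rRNA had been depleted with a kit that also targets mitochondrial rRNA, so MT-RNR1 and MT-RNR2 counts are what depletion left. Replicates differed beyond sampling noise in every group, with a chi-square per gene of 3.01 to 112. The 6 hepatocyte markers (ALB, APOA1, APOB, AFP, TTR and SERPINA1) summed to 47002–51592 CPM (counts scaled by library total) in nonirradiated HepG2 and to at most 1.57 CPM in HEK293. Among markers listed for Neuro2a, Hand2 ranged from 114 to 118 CPM, Phox2a from 23.1 to 33.4 CPM and Gata3 from 0.134 to 0.555 CPM in its nonirradiated samples. The 7 neuron markers summed to 1999–2341 CPM in nonirradiated HippCulture, where the 5 astrocyte markers summed to 573–675 CPM. Oligodendrocyte markers there came to 24.6–34.0 CPM, microglial markers to 6.22–6.94 CPM and endothelial markers to 0.732–1.60 CPM. After irradiation the neuron and astrocyte sums of HippCulture were 844–1120 and 484–620 CPM. The part of other cells in the results was not tested.

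Mitochondrial transcripts made up very different shares of the libraries. The share is given as the percentage of all gene counts, and counting error was small beside the replicate spread (largest half-width of a Wilson 95% interval, 0.0144 percentage points; intervals cover counting error only). In nonirradiated HepG2 the samples held 13.3%, 8.16% and 8.58%, and in irradiated HepG2 20.6%, 21.0% and 20.4%. Replicate 1 stood apart among the nonirradiated samples, yet all 3 irradiated samples lay above it. The mean went from 10.00% ± 2.83 to 20.7% ± 0.306 (SD, n = 3 each). HEK293 was far lower, with 0.647%, 0.543% and 0.362% before and 1.65%, 0.652% and 0.618% after irradiation. Those groups overlapped, and the high irradiated value was that of replicate 1. Same-numbered HEK293 samples deviated together, and within each of the 3 pairs the irradiated sample held the larger share. Neuro2a went from 1.57%, 1.77% and 1.77% to 3.76%, 3.95% and 4.28%, and HippCulture from 1.67%, 1.57% and 1.42% to 3.77%, 3.20% and 4.11%, without overlap. No test was run on these sums over the members, and the smallest p that an exact two-sided permutation test of 3 against 3 samples can give is 0.1.

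**Figure D1:**
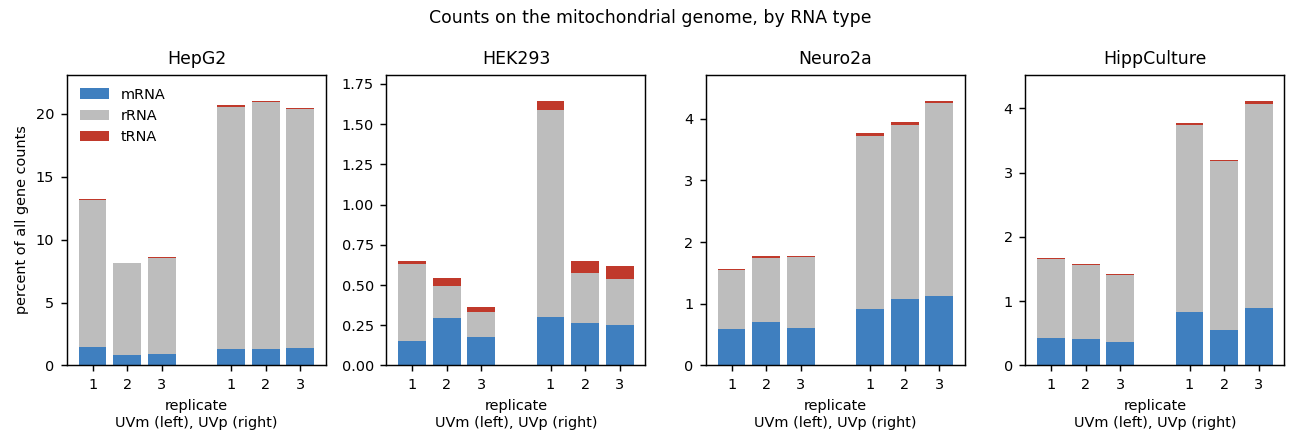
Percentage of all gene counts on the mitochondrial genome in each of the 24 samples, as bars stacked by RNA type, with 1 panel per cell type (each with its own axis from 0), nonirradiated (UVm) samples to the left and irradiated (UVp) samples to the right. The HepG2 samples lie between 8.16% and 21.0%, the irradiated Neuro2a and HippCulture samples all lie above their nonirradiated samples, and the HEK293 groups overlap.

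Most mitochondrial counts came from the rRNAs that escaped depletion. In HepG2 they were 89.0% ± 0.349 of the mitochondrial counts before and 93.2% ± 0.280 after irradiation, in Neuro2a 61.6% ± 2.53 and 72.9% ± 1.52, and in HippCulture 73.4% ± 0.649 and 78.8% ± 2.72. Each of these groups of irradiated samples lay above its nonirradiated samples. HEK293 gave 51.3% ± 19.3 and 57.3% ± 18.4, which overlapped, with a rise in all 3 pairs. The mRNA part went the other way, from 10.5% ± 0.398 to 6.36% ± 0.282 in HepG2. Neuro2a went from 37.3% ± 2.39 to 26.1% ± 1.55, and HippCulture from 25.8% ± 0.683 to 20.4% ± 2.70. Messenger RNAs alone were 1.06% ± 0.344 of all gene counts in HepG2 before and 1.32% ± 0.0476 after irradiation, with overlapping groups. They were 0.634% ± 0.0577 and 1.04% ± 0.111 in Neuro2a and 0.401% ± 0.0365 and 0.759% ± 0.182 in HippCulture, without overlap. The tRNAs, though a small part, went from 0.0322% ± 0.0132 to 0.0714% ± 0.0140 of all gene counts in HEK293 and separated the groups there, as they did in the other cell types.

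Between genes, levels were compared per length, as RPKM (reads per kilobase of exon, scaled by library total), in nonirradiated samples. In HepG2 the large-subunit rRNA MT-RNR2 had 44353 ± 5581 RPKM and the small-subunit rRNA MT-RNR1 20672 ± 16842 (SD, n = 3). The complex IV mRNAs MT-CO3 (2021 ± 97.8) and MT-CO1 (1981 ± 259) came next among mRNAs and did not differ from each other beyond their spread. MT-ND2, a complex I mRNA, was lowest at 199 ± 141 RPKM. In HEK293 the leading mRNAs were MT-ND6 (408 ± 337), MT-CO3 (367 ± 16.7) and MT-CO1 (322 ± 39.3), whose spreads overlapped. As strands were not separated, the MT-ND6 value can include RNA of the other strand. The HEK293 tRNAs MT-TC (1492 ± 481) and MT-TY (1484 ± 484) exceeded every mRNA and were about level with MT-RNR2 (1353 ± 841). These neighbours overlap at base 5826, and their HEK293 counts were nearly equal (596 and 591, 1187 and 1189, 1041 and 1028). They are therefore not separate measurements. Reads that only touch so short a gene count in full, which raises its RPKM beside that of an mRNA. In Neuro2a mt-Co1 had 3398 ± 368 RPKM, beside 5468 ± 474 for mt-Rnr2 and 1920 ± 178 for mt-Rnr1. The next mouse mRNAs, mt-Nd1 (276 ± 13.7) and mt-Cytb (254 ± 11.6), were more than 10 times lower than mt-Co1. HippCulture gave the same order at the top, with 6174 ± 537 for mt-Rnr2, 2016 ± 221 for mt-Co1, 270 ± 36.2 for mt-Nd1 and 253 ± 43.0 for mt-Cytb.

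The ratio of MT-RNR2 to MT-RNR1 per base set nonirradiated HepG2 replicate 1 apart. It was 1.27 there, 3.95 and 3.59 in the other nonirradiated samples and 3.76, 3.72 and 3.74 in the irradiated samples. In HEK293 the ratio stayed between 1.86 and 1.95 in all 6 samples, although the level of both rRNAs varied several-fold. That HepG2 library also held about 3 times the MT-ND2 level of its group (245 normalised CPM against 75.6 and 79.1). In HEK293 nonirradiated replicate 2 stood high for most mRNAs outside complex IV, and replicate 1 of both groups stood high for rRNA. Values without these libraries are given below beside the results they moved most.

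Before irradiation, HepG2 held more of most mitochondrial RNAs than HEK293. In edgeR's quasi-likelihood test, with p-values adjusted by Benjamini-Hochberg over all genes tested, 24 of 37 members were higher in HepG2 and 3 were higher in HEK293, where over all 23830 genes 37.6% were called higher in HepG2 and 38.1% higher in HEK293. The median member differed by 1.05 on the log2 scale (-0.01 over all genes). Of the mRNAs 12 of 13 were higher in HepG2, with a median of 2.47. The rRNA counts are what depletion left, and the sequencer model differed between the lines. The rRNAs differed most toward HepG2, by 5.31 ± 0.65 (SE) for MT-RNR1 (adjusted p = 2.05e-05; 4.38 without HepG2 replicate 1) and 5.46 ± 0.48 for MT-RNR2 (adjusted p = 1.38e-06). MT-ND4L and MT-ND4, which share a bicistronic mRNA, followed at 4.35 ± 0.41 and 3.97 ± 0.42. The complex IV mRNAs MT-CO1, MT-CO2 and MT-CO3 differed by 3.07, 2.47 and 2.90, and MT-CYB by 2.92. MT-ND6, the only mRNA of the minus strand, did not pass the test, at 0.34 ± 0.49 (adjusted p = 0.538), -0.11 with library totals in place of TMM scaling and -0.03 without HepG2 replicate 1. The tRNAs were split, with 10 higher in HepG2 and 3 higher in HEK293 (MT-TN, MT-TK and MT-TQ), of 22. The MT-TQ call was lost in 5 of 6 fits with a library left out. MT-TF, the tRNA that precedes MT-RNR1, had the largest tRNA difference toward HepG2 at 2.64 ± 0.66. MT-TN was nearly without counts in HepG2, with 1 in each nonirradiated library, against 43, 62 and 60 in HEK293. Per total count, the HEK293 level was 253-fold that of HepG2, with an exact 95% counting interval of 85.0 to 1239. Its neighbours MT-TC and MT-TY were higher in HepG2, by 0.69 ± 0.21 and 1.34 ± 0.21. Scaling by library totals moved the median over all genes by -0.44 and left 20 members called higher in HepG2, no longer among them MT-TC, and 3 higher in HEK293.

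HippCulture and Neuro2a were closer to each other. Of 26 members tested, 2 were higher in HippCulture and 12 in Neuro2a, against a background of 41.4% and 39.0% of 20940 genes. The mRNAs mt-Nd1, mt-Nd2, mt-Nd4 and mt-Cytb had differences of 0.11, 0.14, 0.22 and 0.13, none of which passed the test. The complex IV mRNA mt-Co1 was lower in HippCulture by -0.62 ± 0.09 (adjusted p = 9.44e-06), and the complex I mRNAs mt-Nd5 and mt-Nd6 by -0.80 ± 0.11 and -1.13 ± 0.18. The large-subunit rRNA mt-Rnr2 was slightly higher in HippCulture (0.31 ± 0.10, adjusted p = 0.00813), which was 0.17 with an adjusted p of 0.243 on library totals, and mt-Rnr1 had -0.03 ± 0.10, with the sign changing under other scalings. Of the tRNAs, 9 of 17 tested were lower in HippCulture and mt-Tp was higher (1.05 ± 0.25). The cluster in front of mt-Nd5 differed most, by -2.28 ± 0.22 for mt-Th, -2.14 ± 0.20 for mt-Ts2 and -2.11 ± 0.21 for mt-Tl2. Without HippCulture replicate 2, 7 members were higher and 9 lower in HippCulture, and without Neuro2a replicate 2, 5 were higher and 10 lower.

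Irradiation is compared next within each cell type. Fold changes are on the log2 scale after trimmed-mean (TMM) scaling and are relative to the bulk of genes. With library totals alone in place of TMM, the median over all genes moved by -1.31 and -0.76 in HepG2 and HEK293 and by -1.19 and -0.54 in Neuro2a and HippCulture. The members stayed above that median in 35 of 35, 28 of 37, 26 of 26 and 26 of 26 cases in the same order. A direction given below is relative to the bulk of genes. Where it turns on library totals this is stated, with the value for mRNAs and for some of the tRNAs.

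In irradiated HepG2, counts on nearly the whole mitochondrial genome rose relative to the bulk of RNAs. Of 35 members tested, 32 were higher, none was lower and 3 did not pass the test, against a background of 38.1% of 20117 genes called higher and 40.7% called lower. The median member changed by 1.49, and the median gene by -0.08. MT-TN and MT-TK, with 0–1 and 8–15 counts per library, were not tested. MT-RNR2 stood at 51402, 39622 and 41323 normalised CPM in the nonirradiated samples and at 267749, 265903 and 249400 in the irradiated samples. All irradiated values lay far above, a 5.92-fold rise (log2 2.56 ± 0.19, adjusted p = 2.42e-06). MT-RNR1 had 24860, 6137 and 7051 before and 43556, 43777 and 40776 after irradiation (1.75 ± 0.48, adjusted p = 0.00855). Without nonirradiated replicate 1 the MT-RNR1 change was 2.62, close to that of MT-RNR2.

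All complex IV mRNAs rose in HepG2. MT-CO1 had 2284, 1749 and 1814 normalised CPM before and 7094, 7584 and 7516 after irradiation (1.92 ± 0.13, adjusted p = 1.62e-06). MT-CO3 went from 1079, 948 and 1002 to 4337, 4394 and 4461 (2.12 ± 0.10, adjusted p = 3.06e-07), and MT-CO2 from 528, 313 and 344 to 1416, 1499 and 1590 (1.93 ± 0.19). MT-ND3, a small complex I mRNA downstream of MT-CO3, behaved like them, with 84.2, 98.6 and 100 before and 373, 380 and 400 after (2.03 ± 0.09, adjusted p = 2.93e-07). MT-CYB (1.62 ± 0.21), MT-ND1 (1.49 ± 0.29) and MT-ND6 (1.38 ± 0.24) rose less. The ATP synthase mRNAs MT-ATP8 and MT-ATP6 came to 1.08 ± 0.28 and 1.03 ± 0.33, and MT-ND2 to 1.15 ± 0.40. These 3 turned negative on library totals, at -0.22, -0.26 and -0.14. Without nonirradiated replicate 1 MT-ATP6 came to 1.55 and MT-ND2 to 1.86.

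The mRNAs of the MT-ND4L to MT-ND5 stretch changed least in HepG2. MT-ND4 had 1840, 702 and 750 normalised CPM before and 2016, 2130 and 2133 after irradiation (0.93 ± 0.33, adjusted p = 0.0271), 1.46 without nonirradiated replicate 1, and -0.36 on library totals. MT-ND4L (0.83 ± 0.37, adjusted p = 0.0638) and MT-ND5 (0.73 ± 0.40, adjusted p = 0.122) did not pass the test. MT-ND5 had 1209, 427 and 453 before and 1629, 918 and 924 after irradiation, so the groups overlapped through nonirradiated replicate 1. Without that library MT-ND4L and MT-ND5 passed, at 1.45 and 1.32, and 34 members were called. With any other single library left out, or under DESeq2, MT-ND4 lost its call, and so did MT-ND2 in all those cases but the removal of nonirradiated replicate 2.

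Among HepG2 tRNAs 19 of 20 tested rose. MT-TY, with 122, 112 and 114 normalised CPM before and 705, 741 and 672 after irradiation, changed by 2.61 ± 0.08 (adjusted p = 2.55e-07). MT-TC went from 86.0, 67.7 and 69.6 to 448, 472 and 425 (2.59 ± 0.11), and MT-TF from 47.0, 14.7 and 16.4 to 74.2, 77.9 and 68.6 (1.50 ± 0.39, and 2.17 without nonirradiated replicate 1). The largest rise was that of MT-TV, the tRNA between the rRNA genes, from 3.48, 2.35 and 2.10 to 18.4, 16.4 and 15.8 (2.68 ± 0.18, adjusted p = 1.48e-06). The smallest changes lay between MT-ND3 and MT-ND5. MT-TR did not pass the test (0.19 ± 0.16, adjusted p = 0.320), and MT-TH, MT-TS2 and MT-TL2 had 0.67, 0.59 and 0.71, each of which turned on library totals (-0.64, -0.72 and -0.60). On library totals 10 members were called higher and 4 lower, the 4 being MT-TR and these 3 tRNAs. MT-TI, MT-TQ, MT-TG and MT-TE also turned negative there, without a call.

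Fewer members passed the test in HEK293. The test of the difference from HepG2, given below, called 1 of 37 members. Of 37 members tested, 12 were higher, none was lower and 25 did not pass the test (none was lower at an unadjusted p under 0.05 or in DESeq2 either), against a background of 24.2% of 20472 genes called higher and 26.4% called lower. The median member changed by 0.32. The rRNAs, 4 of 13 mRNAs and 6 of 22 tRNAs were called, of which the mRNA and tRNA shares lay near that background. The complex IV mRNAs stood out again. MT-CO1 had 355, 434 and 354 normalised CPM before and 1888, 1394 and 1265 after irradiation (1.99 ± 0.18, adjusted p = 5.83e-05). MT-CO3 went from 219, 231 and 214 to 1054, 631 and 659 (1.82 ± 0.21, adjusted p = 0.000141), and MT-CO2 from 130, 145 and 74.3 to 621, 297 and 231 (1.71 ± 0.38, adjusted p = 0.00475). MT-ND3 was the other called mRNA, with 29.2, 31.8 and 27.6 before and 73.0, 50.1 and 49.8 after (0.96 ± 0.17, adjusted p = 0.00165).

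The remaining HEK293 mRNAs had overlapping groups. MT-ND1 had 21.9, 108 and 40.8 normalised CPM before and 43.4, 66.8 and 63.3 after irradiation (0.03 ± 0.47), and MT-ND2 gave the same value (0.03 ± 0.43). MT-ATP6, MT-ATP8, MT-ND4, MT-ND4L and MT-ND5 had -0.05, -0.23, -0.26, -0.27 and -0.25, and MT-CYB 0.63 ± 0.29 (adjusted p = 0.102; 0.72 and 2.49e-07 with the replicate number as a block). For MT-ND4 the samples stood at 90.9, 168 and 84.1 before and 90.7, 99.5 and 96.6 after irradiation. On library totals the HEK293 members split into 8 called higher and 8 called lower, the latter including MT-ND4L (-1.04), MT-ND4 (-1.02) and MT-ND5.

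The HEK293 rRNA calls rested on replicate 1. MT-RNR2 had 2887, 1179 and 872 normalised CPM before and 13981, 2906 and 2678 after irradiation (1.99 ± 0.67, adjusted p = 0.0336), and MT-RNR1 912, 388 and 274 before and 4599, 949 and 870 after (2.03 ± 0.67, adjusted p = 0.0314). The groups overlapped through nonirradiated replicate 1. Both calls were lost without nonirradiated replicate 2 or 3, without irradiated replicate 1, and under DESeq2, with changes of 0.81 to 2.70 for MT-RNR1 and 0.78 to 2.67 for MT-RNR2 over the libraries left out. With the replicate number as a block, which the replicate check allows for HEK293, both were called. The block raised the calls from 12 to 18, of which MT-TR (-0.57) and MT-ND4L (-0.27) were lower. The other members gained were MT-CYB, MT-TW (0.97), MT-TM (0.62) and MT-ND6 (0.27). Without nonirradiated replicate 2, the library high in complex I mRNAs, 18 members were called higher and the median member changed by 1.27. Without nonirradiated replicate 1 the median member stood at -0.11, with 11 called.

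Among HEK293 tRNAs the minus-strand cluster printed above led. MT-TN went from 3.64, 5.02 and 4.55 normalised CPM to 18.5, 29.0 and 29.0 (2.53 ± 0.23, adjusted p = 5.42e-05). MT-TC rose from 50.5, 96.2 and 79.0 to 320, 415 and 408 (2.34 ± 0.24) and MT-TY, at 96.3 in the highest sample before, reached 318, 406 and 399 (2.32 ± 0.24). MT-TP (2.02 ± 0.28), MT-TT (1.45 ± 0.22) and MT-TA (1.21 ± 0.38, adjusted p = 0.0258) were also called, the last not without nonirradiated replicate 1 or 3 or irradiated replicate 2 or 3. MT-TE, which lies next to MT-ND6, had 4.32, 27.7 and 9.10 before and 7.81, 19.5 and 21.0 after irradiation (0.25 ± 0.59). On library totals MT-TE turned negative, as did MT-TF, MT-TV, MT-TI, MT-TQ, MT-TM, MT-TD, MT-TK and MT-TG. By strand, 5 of 9 minus-strand members and 7 of 28 plus-strand members were called, the latter near the background of 24.2%. All called minus-strand members but MT-TP lie in a row, where neighbours can share reads, and strands were not separated. They are therefore not separate measurements of that strand.

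In Neuro2a 23 of 26 members tested were higher after irradiation and none was lower, against a background of 28.9% of 17425 genes called higher and 33.0% called lower. The median member changed by 2.01 and the median gene by -0.14. The rRNAs led, with mt-Rnr1 at 1148, 1143 and 1352 normalised CPM before and 7671, 7755 and 8194 after irradiation (2.70 ± 0.11, adjusted p = 1.58e-09). For mt-Rnr2 the samples went from 5213, 5744 and 6223 to 33082, 35442 and 40465 (2.67 ± 0.13, adjusted p = 2.61e-09). All 7 mRNAs tested rose. mt-Co1 went from 3139, 3849 and 3434 to 11255, 14408 and 15572 (1.98 ± 0.14), mt-Nd1 from 171, 184 and 171 to 777, 692 and 699 (2.05 ± 0.10) and mt-Cytb from 192, 200 and 185 to 619, 707 and 666 (1.79 ± 0.10). mt-Nd2 rose by 1.96 ± 0.11 and mt-Nd4 by 1.34 ± 0.10. The smallest mRNA changes were those of mt-Nd5, with 237, 206 and 179 before and 297, 363 and 317 after (0.65 ± 0.12, adjusted p = 0.000263), and of mt-Nd6 on the other strand (0.84 ± 0.20). On library totals mt-Nd5 was lower (-0.55, adjusted p = 0.000639) and mt-Nd6 came to -0.35.

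The Neuro2a tRNAs spanned a wider range than its mRNAs and rRNAs. mt-Tc had the largest rise of all members, from 18.8, 26.3 and 19.7 normalised CPM to 168, 171 and 145 (2.89 ± 0.13, 7.43-fold, adjusted p = 1.88e-09). mt-Tn went from 19.9, 29.4 and 21.8 to 169, 185 and 155 (2.83 ± 0.14) and mt-Ty rose by 2.73 ± 0.14. The cluster in front of mt-Nd5 did not pass the test. mt-Tl2 had 15.1, 11.5 and 8.85 before and 11.5, 13.2 and 9.04 after irradiation (-0.07 ± 0.21, adjusted p = 0.770), and mt-Th 7.86, 9.27 and 6.34 before and 8.01, 9.66 and 7.60 after (0.10 ± 0.19, adjusted p = 0.679). For mt-Ts2 the samples stood at 8.88, 9.71 and 7.15 before and 8.38, 9.87 and 7.60 after, with a fitted change of -0.00 ± 0.18 (adjusted p = 0.999). The groups overlapped for all 3 tRNAs. On library totals they were called lower, at -1.10 for mt-Th, -1.19 for mt-Ts2 and -1.27 for mt-Tl2, and 17 members were called higher and 4 lower.

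In HippCulture all 26 members tested were higher after irradiation, against a background of 26.1% of 18488 genes called higher and 25.9% called lower. The median member changed by 1.58 and the median gene by -0.04. In bulk samples of a mixed culture, the part of each cell type in the counts cannot be told apart. A difference in cell make-up between samples also cannot be separated from one in the RNA recovered or reverse transcribed per cell. mt-Rnr2 went from 8362, 7700 and 8073 normalised CPM to 29094, 30675 and 30783 (1.91 ± 0.10, adjusted p = 7.77e-11), and mt-Rnr1 from 1407, 1169 and 1461 to 4684, 5811 and 4423 (1.89 ± 0.12). Among mRNAs mt-Nd1 rose most, from 234, 175 and 232 to 776, 565 and 771 (1.72 ± 0.12, adjusted p = 6.74e-10). mt-Co1 went from 2547, 2637 and 2496 to 7478, 6046 and 7729 (1.47 ± 0.11), and mt-Cytb, mt-Nd2 and mt-Nd4 rose by 1.44, 1.42 and 1.36. mt-Nd5, with 145, 113 and 146 before and 270, 260 and 282 after, changed least (1.01 ± 0.09, adjusted p = 2.48e-08). mt-Nd6 followed with 1.11 ± 0.15. No member turned on library totals, where 22 were called higher and none lower.

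Among HippCulture tRNAs mt-Tc again had the largest rise, from 28.3, 24.8 and 28.5 normalised CPM to 101, 115 and 125 (2.06 ± 0.10, adjusted p = 7.32e-11). mt-Tn went from 32.5, 27.3 and 32.1 to 103, 122 and 131 (1.95 ± 0.10) and mt-Ta, their neighbour on the same strand, from 11.0, 9.94 and 10.6 to 28.5, 37.7 and 40.8 (1.76 ± 0.14). The cluster in front of mt-Nd5 rose here, though least among tRNAs. mt-Th had 1.65, 1.66 and 2.19 before and 3.84, 4.64 and 4.27 after irradiation (1.20 ± 0.25, adjusted p = 0.000531). mt-Ts2 changed by 0.97 ± 0.25 and mt-Tl2, with 3.10, 3.42 and 2.79 before and 5.12, 4.03 and 5.56 after, by 0.69 ± 0.22 (adjusted p = 0.0130). These counts were low, none of the 3 tRNAs was called on library totals, and the mt-Tl2 call was lost without irradiated replicate 3 and under DESeq2 (adjusted p = 0.0753). The mt-Tv call, 1.38 ± 0.54 (adjusted p = 0.0372), was lost in 4 of the 5 fits with a library left out that tested it.

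**Figure D2:**
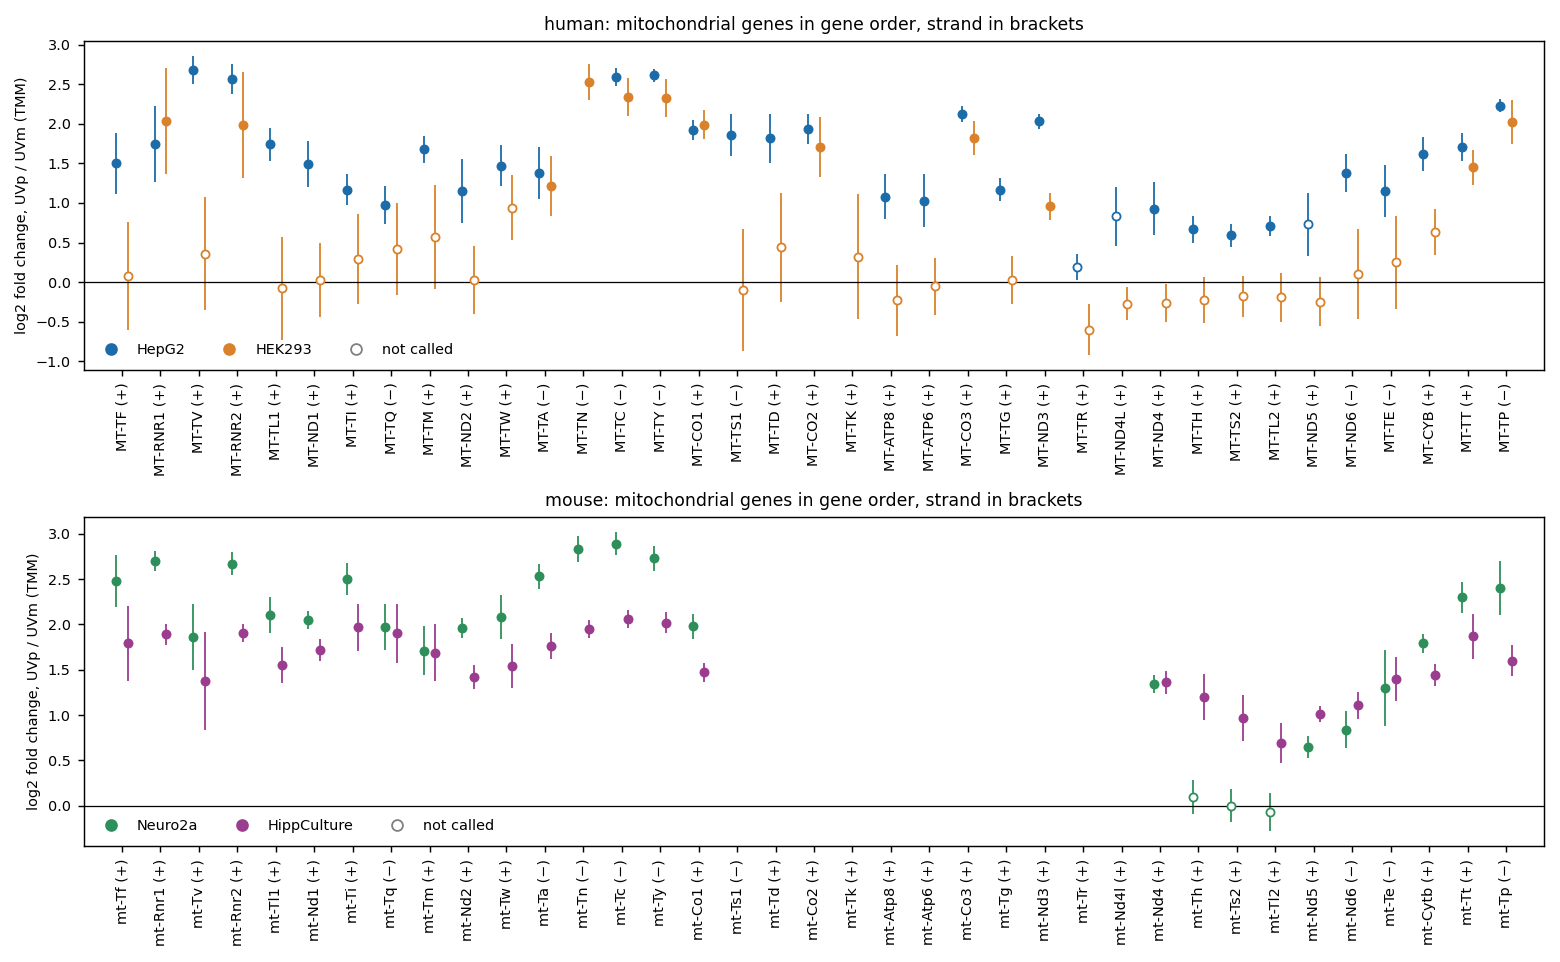
Change after UV irradiation (log2, relative to the bulk of genes) for each mitochondrial gene in genome order, in the 4 cell types, with standard errors, colour by cell type, filled points for genes that passed the test and open points for those that did not. Both rRNAs, MT-TC and MT-TY lie above the median member in each cell type, with changes of 1.89 to 2.89 for mt-Rnr1, mt-Rnr2, mt-Tc and mt-Ty in mouse, and the genes tested from MT-ND4L to MT-ND5 lie below it.

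Along the genome, the changes of 2 cell types, which share no samples, were compared gene by gene. Across 35 genes the HepG2 and HEK293 changes had Pearson's r of 0.77 and Spearman's rho of 0.80. Across the 15 mRNAs and rRNAs these were 0.89 and 0.88. Neuro2a and HippCulture gave 0.92 and 0.92 across 26 genes, and HepG2 and Neuro2a 0.73 and 0.71 across 25 genes. HEK293 gave 0.71 and 0.78 with Neuro2a and 0.66 and 0.73 with HippCulture across 26 genes, and HepG2 with HippCulture had the lowest values, 0.60 and 0.60 across 25 genes. These correlations are across genes that share precursors and, in part, reads, and genes are not independent replicates.

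The composition of the mRNA pool, which does not depend on scaling between libraries, moved in the same way. In HepG2 MT-CO1 made up 24.1%, 33.1% and 32.5% of the counts on the 13 mRNAs before and 34.5%, 36.7% and 36.0% after irradiation. MT-CO3 went from 11.4%, 17.9% and 17.9% to 21.1%, 21.2% and 21.4%, and MT-ND4 from 19.4%, 13.3% and 13.4% to 9.81%, 10.3% and 10.2%. In HEK293 the MT-CO1 part went from 29.0%, 19.1% and 27.7% to 44.0%, 41.7% and 40.5%. The HEK293 MT-ND5 part went from 10.4%, 13.2% and 10.8% to 2.92%, 5.42% and 5.42%, and that of MT-ND4 from 7.43%, 7.38% and 6.58% to 2.11%, 2.98% and 3.09%. None of these groups overlapped. The MT-ND6 part, 4.64%, 14.0% and 9.12% before and 1.81%, 6.86% and 6.97% after irradiation, did overlap in HEK293, while it fell within all 3 pairs.

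In the mouse cells mt-Co1 dominated the 7 measurable mRNAs. It took 80.5%, 83.9% and 83.9% of their counts in nonirradiated Neuro2a and 84.3%, 86.9% and 88.3% in irradiated Neuro2a, which did not overlap. In HippCulture its part was 77.7% ± 3.14 and 78.0% ± 0.812, with overlap. The mt-Nd5 part went from 6.09%, 4.49% and 4.38% to 2.22%, 2.19% and 1.80% in Neuro2a. The HippCulture samples went from 4.30%, 3.49% and 4.46% to 2.79%, 3.38% and 2.85%, again without overlap. The mt-Nd4 part went from 1.17% ± 0.00849 to 0.787% ± 0.0578 in Neuro2a, while HippCulture had 1.95% ± 0.348 and 1.81% ± 0.166, with overlap. No test was run on these parts.

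**Figure D3:**
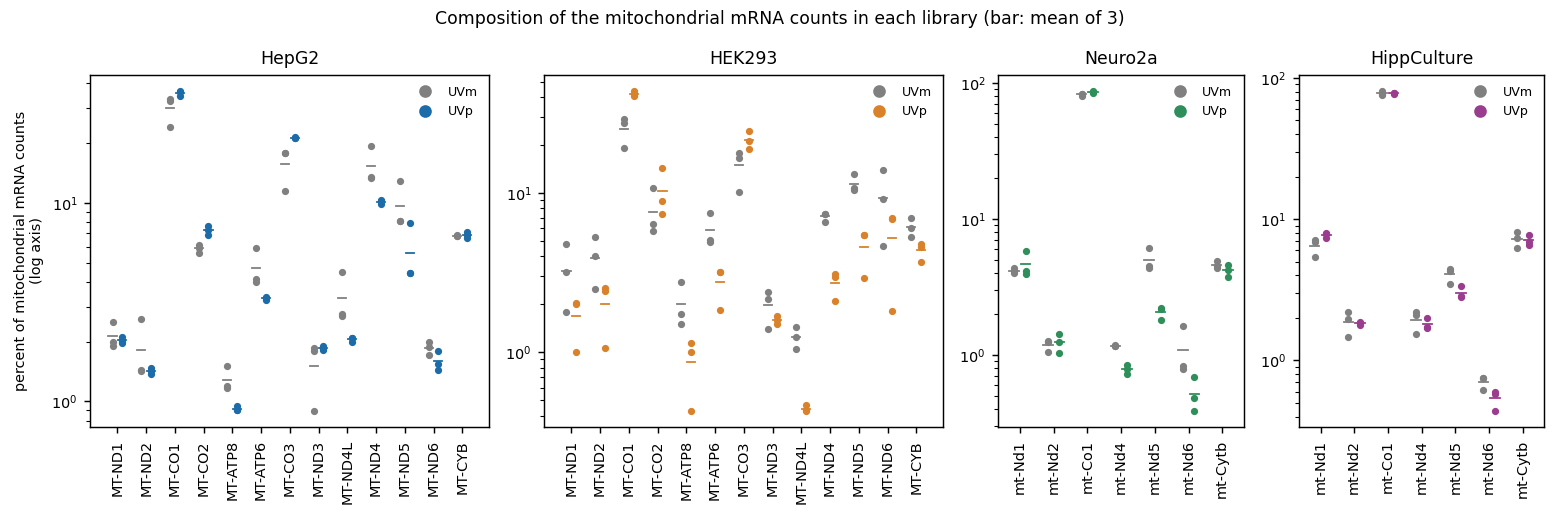
Percentage of the mitochondrial mRNA counts taken by each mRNA on a log axis, in nonirradiated (grey) and irradiated (coloured) samples of the 4 cell types, with points for samples and lines for means. MT-CO1 goes from a mean of 25.3% to 42.0% in HEK293 and from 29.9% to 35.7% in HepG2, while MT-ND5 goes from 11.5% to 4.59% and from 9.65% to 5.60%.

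Per base, the large-subunit rRNA gained on the main mRNA in 3 cell types. The ratio of MT-RNR2 to MT-CO1 was 22.3, 22.4 and 22.5 in nonirradiated HepG2 and 37.3, 34.7 and 32.8 after irradiation. In Neuro2a it went from 1.62, 1.46 and 1.77 to 2.87, 2.40 and 2.54, and in HippCulture from 3.21, 2.85 and 3.16 to 3.80, 4.95 and 3.89. HEK293 gave 8.05, 2.69 and 2.44 before and 7.32, 2.06 and 2.09 after irradiation, where replicate 1 was the high sample of both groups and the ratio fell within all 3 pairs. The ratio of MT-TY to MT-CO1, tRNA to the mRNA downstream on the other strand, went from 1.25, 1.50 and 1.46 to 2.32, 2.28 and 2.09 in HepG2, and in HEK293 from 3.30, 5.18 and 5.15 to 3.93, 6.81 and 7.37, with overlap between groups and a rise within all 3 pairs.

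Whether the UV effect differed between cell types was tested as an interaction in fits of all 12 samples of a species. These fits have a scaling of their own, so a difference is not the exact subtraction of the values above, and they share the samples of those comparisons. Between HepG2 and HEK293, 1 of 37 members was called, against 1.23% of 23830 genes with a larger effect in HepG2 and 3.50% with a larger effect in HEK293. That was MT-ND3, with a difference of 0.92 ± 0.21 (adjusted p = 0.0183) and effects of 2.03 in HepG2 and 0.96 in HEK293. The call was lost on library totals (0.54, adjusted p = 0.0716) and without HEK293 nonirradiated replicate 2 (adjusted p = 0.0529). The number of members called was 4 without HEK293 nonirradiated replicate 1, 5 without HEK293 irradiated replicate 1 and 3 without HepG2 nonirradiated replicate 1. For MT-TV, MT-ND1 and MT-ND4 the differences were 2.16 ± 0.70, 1.32 ± 0.59 and 1.05 ± 0.44 and did not pass the test (adjusted p = 0.0973, 0.252 and 0.215). The median member differed by 0.75 and the median gene by 0.02. With the replicate number as a block, although the numbers did not pair the HepG2 samples, 17 members were called, all with a larger effect in HepG2, among them MT-ND1, MT-ND2, MT-ND4, MT-ND5, MT-ND6, MT-ATP6 and MT-CYB, and none of the complex IV mRNAs or rRNAs. MT-CO1, MT-CO2 and MT-CO3 had differences of -0.21 ± 0.24, 0.07 ± 0.44 and 0.16 ± 0.24 without the block, and the latter 2 turned to -0.29 and -0.21 on library totals.

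Between HippCulture and Neuro2a, 10 of 26 members were called, 4 with a larger effect in HippCulture and 6 with a larger effect in Neuro2a, against 14.7% and 3.08% of 20940 genes. The share with a larger effect in HippCulture thus lay near its background. The median member differed by -0.36 and the median gene by 0.30. The effect was smaller in HippCulture for both rRNAs, by -0.68 ± 0.18 for mt-Rnr1 (adjusted p = 0.00769) and -0.63 ± 0.19 for mt-Rnr2 (adjusted p = 0.0188). The same held for 4 minus-strand tRNAs in a row, mt-Ta (-0.63 ± 0.21), mt-Tn (-0.75 ± 0.18), mt-Tc (-0.70 ± 0.17) and mt-Ty (-0.57 ± 0.19). These 6 kept their sign on library totals, with values of -0.06 to -0.24, and none passed the test there. The effect was larger in HippCulture for the cluster in front of mt-Nd5, by 1.23 ± 0.32 for mt-Th (adjusted p = 0.00743), 1.11 ± 0.31 for mt-Ts2 (adjusted p = 0.0130) and 0.89 ± 0.31 for mt-Tl2 (adjusted p = 0.0462), and for mt-Nd5 by 0.49 ± 0.17 (adjusted p = 0.0390). In that order, these differences were larger than those of 82.8%, 80.6%, 75.4% and 59.6% of the genes tested. On library totals these 4 were 1.76, 1.63, 1.41 and 1.01 and were called, as were mt-Nd4 (0.68) and mt-Nd6 (0.93). Under DESeq2, mt-Th kept its call and mt-Ts2, mt-Tl2 and mt-Nd5 lost theirs. With single libraries left out, 6 to 9 members were called, the fewest without HippCulture irradiated replicate 1. mt-Rnr1, mt-Tn, mt-Tc and mt-Th were called every time, whereas of 12 fits mt-Tl2 lost its call in 9, mt-Nd5 and mt-Ty in 7 each, mt-Ta in 5, mt-Ts2 in 2 and mt-Rnr2 in 1. With a replicate block 14 members were called, 5 with a larger effect in HippCulture.

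**Figure D4:**
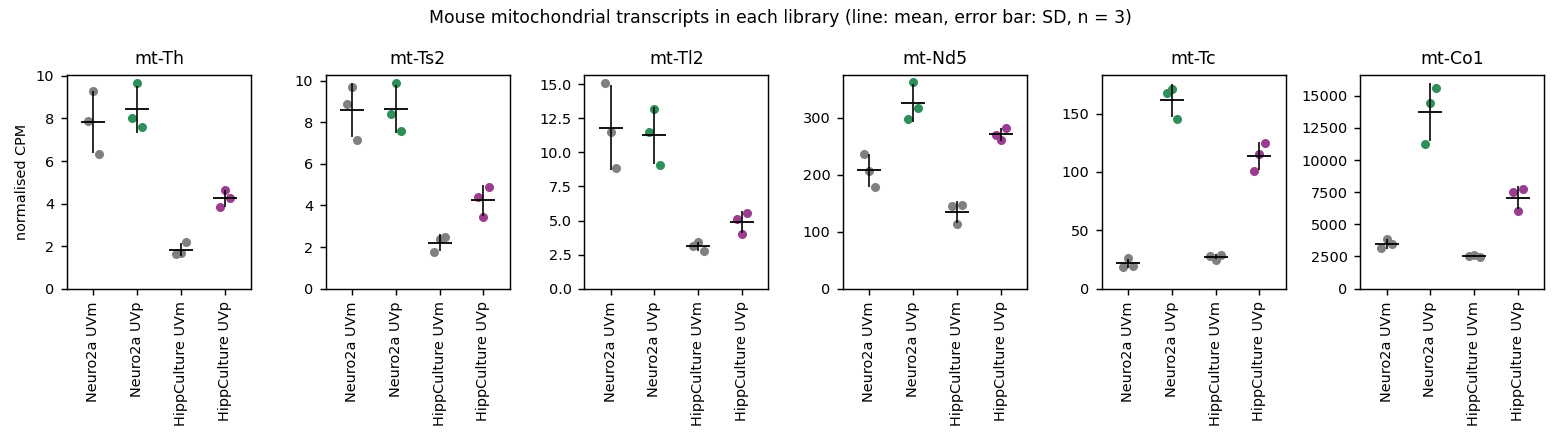
Normalised CPM of mt-Th, mt-Ts2, mt-Tl2, mt-Nd5, mt-Tc and mt-Co1 in each Neuro2a and HippCulture sample, nonirradiated (UVm) and irradiated (UVp), with points for samples, lines for means and error bars for SD (n = 3). The tRNA groups overlap in Neuro2a (mt-Th at 6.34 to 9.66 over all samples) and separate in HippCulture (mt-Th at 1.65 to 2.19 before and 3.84 to 4.64 after irradiation).

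In mouse, 11 genes had at most 11 counts in every library and were left out of the tests. They were the mRNAs mt-Co2, mt-Atp8, mt-Atp6, mt-Co3, mt-Nd3 and mt-Nd4l, at 0 to 11 counts, and the tRNAs mt-Ts1, mt-Td, mt-Tk, mt-Tg and mt-Tr, at 0 to 2 counts. The mRNAs are subunits of complexes I and IV and of the ATP synthase that cells with a respiratory chain express, and each nonirradiated group held less than 1% of the counts per base of mt-Co1. They form a single block between mt-Co1 and mt-Nd4. The reference genome was therefore searched for their sequence outside chromosome M, on either strand. All 100-base windows of mt-Co2, mt-Atp8, mt-Atp6, mt-Co3, mt-Nd4l, mt-Ts1, mt-Td and mt-Tk had an exact nuclear match, and so had 98.8% of those of mt-Nd3. A nuclear segment on chromosome 1 (mm10, 24611535 to 24616184, minus strand) matched 4648 of 4650 aligned bases. A read that lies wholly in such a stretch matches both places equally well, and how such reads were treated is not given in the sources used here, so the part of the copy in the low counts was not tested. The tRNAs mt-Tg (9.1% of windows, though its own 68 bases recur exactly) and mt-Tr (0%) lie inside the block and had counts as low. mt-Ty, with all windows matched, and mt-Th and mt-Tn, with 88.2% and 76.7%, still had counts, as did mt-Nd4 (60.8%) and mt-Co1 (30.8%), so their levels are uncertain.

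Human genes showed less exact sharing. MT-TN had a nuclear match for all its 100-base windows and MT-TK for 90.3%, followed by MT-TQ (37.9%), MT-CO1 (27.9%), MT-ND2 (26.1%), MT-TA and MT-TS1 (21.9% each) and MT-RNR1 (21.2%). A segment of human chromosome 1 (hg38, 629084 to 634924) matched the genome from MT-ND1 to MT-CO3 at 98.55% identity, with a whole exact copy of MT-TN at 630827 to 630899. MT-TN and MT-TK are also the tRNAs with the largest differences toward HEK293 before irradiation, with 1 count of MT-TN in each HepG2 library and a difference of -3.37 ± 0.78 for MT-TK. The exact copy has the sequence of the MT-TN gene printed above.

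**Figure D5:**
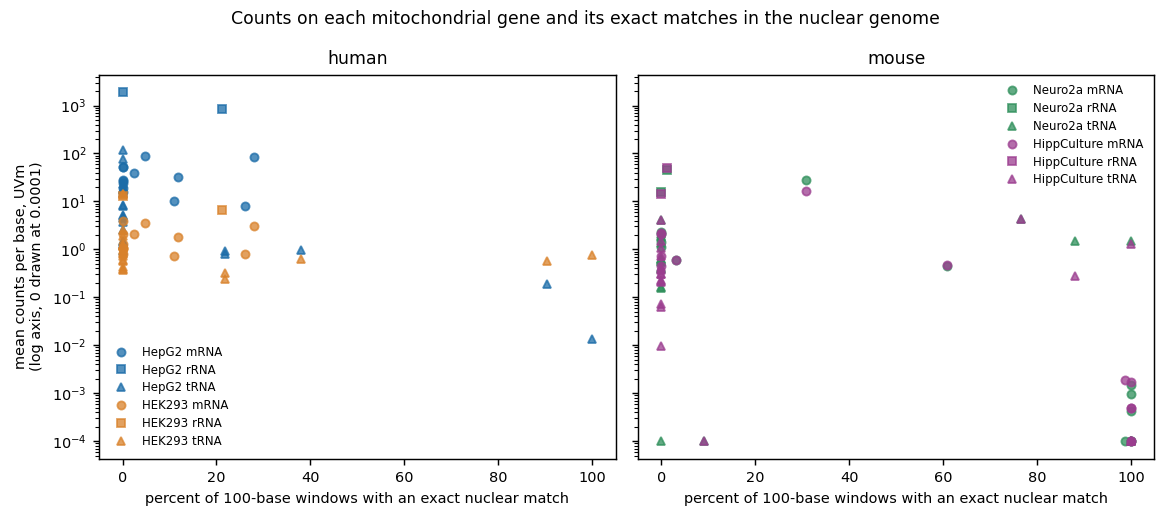
Mean counts per base in nonirradiated samples (log axis, 0 drawn at its foot) against the percentage of a gene's 100-base windows that recur exactly in the nuclear genome, with 1 point per mitochondrial gene and cell type, human to the left and mouse to the right. The mouse mRNAs at or near 100% lie at the foot of the axis, with at most 11 counts in any library, and among human genes MT-TN at 100% is lowest in HepG2.

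Pseudogenes named after mitochondrial genes took few of the reads. In human, 404 genes are named as pseudogenes of mitochondrial genes. Of these 125 had a count in HepG2, where they summed to 0.401–0.482% of the mitochondrial counts before and 0.221–0.252% after irradiation. Of 11 tested there 5 were higher and 6 lower, near the background of 38.1% and 40.7%. MTCO1P12, a copy of MT-CO1 on chromosome 1, had the most, with 15602, 12833 and 10610 counts before and 18786, 16521 and 18855 after irradiation (log2 change 1.63 ± 0.21, adjusted p = 9.95e-05; 0.33 on library totals). In HEK293 MTATP6P1 had the most, with 66, 208 and 74 before and 43, 86 and 94 after (-0.05 ± 0.42). In mouse, 13 annotated genes lay in the nuclear segments found by alignment. Of these Gm28438, in the chromosome 1 segment right after the copy of mt-Tg, had the most counts. It had 109, 85 and 72 counts in nonirradiated and 51, 53 and 48 in irradiated Neuro2a (0.51 ± 0.18, adjusted p = 0.0220; -0.68 on library totals), and 44, 37 and 26 against 62, 42 and 87 in HippCulture (1.43 ± 0.20).

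A nuclear gene outside that list was named after its counts were seen. ENSG00000255823.4, on chromosome 11 (hg38, 10507887 to 10509189, minus strand), lies in a segment that matches the rRNA genes at 94.27% identity. In HepG2 it had 350742, 383079 and 309414 counts before and 1030339, 864017 and 912406 after irradiation (2.62 ± 0.16, adjusted p = 1.02e-06), close to the change of MT-RNR2. These counts came to 7.24–8.77% of the mitochondrial counts before and 9.57–9.84% after irradiation, far above the sum of the named pseudogenes. In HEK293 it had no count before irradiation and 1, 0 and 0 after.

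The nuclear genes for mitochondrial transcription, RNA processing, RNA stability, tRNA modification and DNA replication are given from a list of 40 human genes and their 41 mouse counterparts, chosen for their known roles. Their RNAs come from the nucleus and are translated in the cytosol. In HepG2 26 were higher after irradiation and 6 lower, against a background of 38.1% and 40.7% of all genes (median 0.40, and -0.08 over all genes). In HEK293 these were 13 and 5, against 24.2% and 26.4%, so the share that was higher lay near the background (median 0.23). Neuro2a had 25 and 5, against 28.9% and 33.0% (median 0.48), and HippCulture 18 and 1, against 26.1% and 25.9% (median 0.34). Each median was below that of the mitochondrial genes in its cell type. Many of these changes are small, and 21, 5, 22 and 8 of the called genes, in the same order, change sign on library totals. LRPPRC, which holds mitochondrial mRNAs in a stable form, was lower in every cell type. HepG2 and HEK293 gave changes of -0.38 ± 0.07 and -0.67 ± 0.13, and Neuro2a and HippCulture of -0.86 ± 0.11 and -0.28 ± 0.08. The HepG2 samples had 290, 276 and 269 normalised CPM before and 209, 214 and 220 after irradiation. SLIRP, its partner protein, was higher in every cell type, with 2.10 ± 0.15, 1.82 ± 0.25, 1.30 ± 0.09 and 1.05 ± 0.10 in the same order. In HepG2 SLIRP went from 18.1, 27.7 and 27.9 to 109, 105 and 103. On library totals both kept their directions, with SLIRP at 0.79, 1.04, 0.10 and 0.50.

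SLIRP was also the listed gene with the largest rise in both human lines. In the mouse cells that was Hsd17b10, which encodes a subunit of the mitochondrial RNase P, with 37.7, 41.2 and 39.3 normalised CPM before and 127, 142 and 157 after irradiation in Neuro2a (1.85 ± 0.10) and 1.43 ± 0.12 in HippCulture. The largest fall among called genes was that of PDE12, a nuclease that trims poly(A) tails in mitochondria, in HepG2 (-1.17 ± 0.08) and HEK293 (-1.39 ± 0.20), and of Lrpprc in the mouse cells. Of the 15 stability genes 7 were higher and 5 lower in HepG2, near the background given above. Between the nonirradiated human lines, LRPPRC was higher in HepG2 (0.81 ± 0.14, adjusted p = 0.000302) and SLIRP had -0.15 ± 0.20 (adjusted p = 0.498). In HippCulture, Lrpprc and Slirp were lower than in Neuro2a, by -0.37 ± 0.08 and -1.48 ± 0.09.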

How the data were processed

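RNA-seq libraries of 24 samples (4 cell types, nonirradiated and UV-irradiated, 3 replicates each) were read as the deposited tables of whole-number read counts per gene. Per the methods and processing notes, the authors removed rRNA with Ribo-Zero Gold, aligned reads to hg38 or mm10 with TopHat2 2.1.1 and counted them with featureCounts on GENCODE annotation, giving a read to every gene it overlapped. Per the file headers, the counting command used neither a strand setting nor a setting for reads with several equal matches, and the sources used here describe neither. The coordinates of all 37 mitochondrial genes per species matched those of the reference annotation of the same build.

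Groups came from the sample labels. Counts were tested with edgeR 4.0.16 in R 4.3.3 (quasi-likelihood test, TMM factors) on genes with a mean of at least 0.5 CPM in nonirradiated samples, separately per cell type, with interaction fits for the difference of UV effects. P-values were adjusted by Benjamini-Hochberg over all genes tested and called under 0.05. The code was tested on simulated data. Totals were 6910907 to 53511592 counts per sample, for which 3 counts correspond to 0.0561 to 0.434 CPM. Levels were compared between genes as RPKM. Shares over members were described without a test.

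Same-numbered HEK293 samples deviated together (correlations over genes of 0.654, 0.368 and 0.461), as did Neuro2a samples (0.29, 0.104 and 0.146). HippCulture samples had lower correlations (0.0567 to 0.137). In HEK293, Neuro2a and HippCulture each nonirradiated sample correlated best with the irradiated sample of its own number. In HepG2 (-0.0244 to 0.00704) this held for replicate 2 only, and its samples were not paired by this measure. The pairing comes from the data, since the labels give only the numbers. Alternatives were DESeq2 1.42.0, its size factors in edgeR, library totals without TMM, TMM from nuclear genes, 3 other filters, the replicate number as a block, and each library left out. Windows of 50 and 100 bases and minimap2 alignments were compared with the nuclear genome.

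The genes named were the mRNAs and rRNAs, in each cell type the 3 tRNAs with the highest nonirradiated counts and the called tRNA with the largest rise and fall, LRPPRC, SLIRP and the listed nuclear gene with the largest rise and fall, and the nuclear copy with the most counts. Other tRNAs were named after their values were seen. The members and lists were chosen with earlier results of these data known. Mouse genes of the mitochondrial block with at most 11 counts per library were left out of tests.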

Additional observations from a re-analysis of the deposited data

Results flagged for a closer look

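The UV effect differed between cell types for 11 mitochondrial transcripts in an interaction test (edgeR, Benjamini-Hochberg adjusted over all genes tested). Between the human lines this was MT-ND3 alone, with a difference of 0.92 on the log2 scale, larger in HepG2. That is 1 of 37 members, against 1.23% of 23830 genes with a larger effect in HepG2 and 3.50% in HEK293. The MT-ND3 call was lost on library totals and without HEK293 nonirradiated replicate 2. Every irradiated sample lay above every nonirradiated sample of its line, at 373 to 400 against 84.2 to 100 normalised CPM in HepG2 and 49.8 to 73.0 against 27.6 to 31.8 in HEK293.

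Between the mouse cells the effect was smaller in HippCulture for mt-Rnr1 (-0.68), mt-Rnr2 (-0.63), mt-Ta (-0.63), mt-Tn (-0.75), mt-Tc (-0.70) and mt-Ty (-0.57). It was larger in HippCulture for mt-Th (1.23), mt-Ts2 (1.11), mt-Tl2 (0.89) and mt-Nd5 (0.49). The share of members in this second set lay near the background of 14.7% of genes. The first set held 6 of 26 members, against 3.08% of genes. The first 6 lost their calls on library totals and the last 4 kept them there. Under DESeq2, however, mt-Ts2, mt-Tl2 and mt-Nd5 lost their calls. With single libraries left out, mt-Tl2 lost its call in 9 of 12 fits and mt-Nd5 and mt-Ty in 7 each. mt-Th, mt-Ts2 and mt-Tl2 were also the members with the largest differences before irradiation, about 4 times lower in HippCulture, and mt-Th had 88.2% of its windows matched in the nuclear genome. The part of the baseline level and of the nuclear match in these differences was not tested.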

How the results depend on the processing

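Library totals in place of TMM gave 14 HepG2 calls, 10 higher and 4 lower, in place of 32 higher, and turned HepG2 MT-ND2 (-0.14), MT-ATP8 (-0.22), MT-ATP6 (-0.26), MT-ND4L (-0.47), MT-ND4 (-0.36) and MT-ND5 (-0.57), HEK293 MT-ND1 (-0.73), MT-ND2 (-0.72), MT-ND6 (-0.64), MT-TE (-0.50) and MT-CYB (-0.14), and Neuro2a mt-Nd5 (-0.55) and mt-Nd6 (-0.35). For the difference between human lines they gave 0 calls in edgeR (2 larger and 2 smaller at an unadjusted p under 0.05) and turned MT-TC (-0.29), MT-TY (-0.26), MT-CO2 (-0.29) and MT-CO3 (-0.21). For the mouse difference they gave 6 calls and turned mt-Nd1 (0.34), mt-Nd2 (0.12), mt-Co1 (0.14) and mt-Cytb (0.31). Before irradiation they turned MT-ND6 (-0.11), mt-Nd1 (-0.04), mt-Nd2 (-0.01) and mt-Cytb (-0.0045). Of other settings, DESeq2 gave 2 calls for the human difference and fitting every gene with at least 1 count gave 16. DESeq2 and its size factors in edgeR each turned mt-Nd4 in the mouse difference (-0.07) and mt-Rnr1 before irradiation (0.04), the latter also 0.02 with every gene with a count and 0.07 with at least 10 counts in every sample. In HEK293 at least 10 counts in every sample turned MT-ND1 (-0.09), MT-ND2 (-0.08) and MT-ND6 (-0.03), and 0.5 CPM over all samples MT-ND1 (-0.01) and MT-ND2 (-0.0042). The cause of these changes was not tested.

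The replicate block gave 17 calls for the human difference, with MT-RNR1 at 0.17, and HEK293 MT-ATP6 at 0.09, besides the HEK293 count given above. With single libraries left out, the human difference had 0 to 5 calls and the mouse difference 6 to 9. Values ranged in HEK293 from -0.36 to 0.89 for MT-ND1, -0.31 to 0.76 for MT-ND2, -0.52 to 0.55 for MT-ATP8, -0.29 to 0.62 for MT-ATP6, -0.43 to 0.13 for MT-ND4, -0.46 to 0.26 for MT-ND5, -0.31 to 1.02 for MT-ND6 and -0.17 to 1.27 for MT-TE, and in Neuro2a from -0.24 to 0.14 for mt-Tl2. The human difference ranged from -0.01 to 1.99 for MT-TF, -1.08 to 1.0 for MT-RNR1, -0.25 to 1.84 for MT-RNR2, -0.11 to 0.39 for MT-TC, -0.09 to 0.42 for MT-TY, -0.32 to 0.18 for MT-CO1, -0.12 to 0.81 for MT-CO2 and -0.27 to 1.33 for MT-TE, and the mouse difference from -0.02 to 0.29 for mt-Nd4. Before irradiation MT-ND6 ranged from -0.06 to 1.29, mt-Rnr1 from -0.11 to 0.11 and mt-Ta from -0.27 to 0.06.

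As shares of all counts, mRNAs without MT-ATP8 and MT-ND4L went from 1.01% to 1.28% in HepG2, 0.200% to 0.269% in HEK293, 0.634% to 1.04% in Neuro2a and 0.401% to 0.759% in HippCulture. Without the 10 nuclear genes with the most counts, the mitochondrial share was 26.5% in irradiated HepG2, and HEK293 went from 0.569% to 1.28% with every irradiated sample above the nonirradiated ones, while nonirradiated and irradiated Neuro2a gave 2.22% and 7.42%, and the HippCulture groups 2.08% and 6.55%. Low tRNA counts limit what depth can show for mt-Th, mt-Ts2, mt-Tl2 and mt-Tv in HippCulture and for MT-TN in HepG2.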
